A study of Mus musculus with 15 samples.

Results

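The 37 genes described here are cell cycle and proliferation genes. They were chosen by name, not by their values, but with earlier results of these data known. All 37 were found among the 52526 genes listed for each mouse. Their RNA was measured in tissue of the left 4th mammary fat pad of 15 nude mice, with 1 library per mouse. The 7 BDE-47 mice received BDE-47, a polybrominated diphenyl ether used as a flame retardant, for 16 weeks from osmotic mini-pumps under the skin. The 8 vehicle mice received the carrier alone, PEG300 with 1% DMSO, which the BDE-47 mice received too. All mice were females of an athymic nude stock (nu/nu), which lack a thymus and so most T cells. The mice also served a xenograft experiment, and the labels do not say which mice carried a xenograft close to the tissue taken. The question was whether BDE-47 altered these genes, and which mice showed dividing cells at all.

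Cells that enter division first raise D-type cyclins, which with CDK4 and CDK6 release E2F factors from the retinoblastoma protein. E2F then turns on genes that load and fire replication origins and supply nucleotides. A later wave of genes, read in G2 and mitosis, is held down in resting cells by the DREAM complex and builds the kinases and spindle proteins that part the chromosomes. Adult mammary tissue at rest holds mainly fat, with sparse epithelium, vessels and immune cells, and few of these cells divide. In whole tissue, fewer cells of a type and less RNA per cell cannot be told apart.

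The control of these waves is written in short promoter elements, so promoters were read for the 30 of 37 members that had an entry in the RefSeq table of build GRCm38.p6. Each window runs from 250 bases before the annotated gene start to 50 after it. Searched on both strands were the CHR element (TTTGAA or TTCGAA), which the DREAM complex binds, the CCAAT box, which NF-Y binds, and E2F words (TTTGGCGC, TTTGCCGC, TTTCGCGC or TTTCCCGC). A CHR word was present in 15 of the 30 members (50.0%) and in 21.7% of the 27025 genes in the table. A CCAAT word was present in 23 members (76.7%) and in 41.1% of all genes. An E2F word was present in 6 members (20.0%) and in 2.61% of all genes. By role, CHR was found in 6 of 7 mitotic kinase, checkpoint and APC/C members, 3 of 3 chromatin and proliferation markers, 2 of 3 spindle and centromere members, 2 of 6 cyclin, CDK and E2F members, 2 of 6 replication licensing members and 0 of 5 nucleotide supply members. E2F words were found in 5 of 6 replication licensing members and in Cdk1, and in none of the other roles, nucleotide supply included. Longer or other forms of these elements were not searched.

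Shown first are promoters of members detected in the most mice among those in the table, to show the control regions of the genes read most often: Ccnd3 (chr17:47593217-47593516, plus strand), Rrm1 (chr7:102441445-102441744, plus strand) and Birc5 (chr11:117848987-117849286, plus strand). Capitals mark the matched words, which in these windows are CCAAT boxes, and the Birc5 window holds no match. Where a gene had more than 1 window, the one with the most matches is shown. The other window of Ccnd3 (chr17:47504801-47505100, plus strand) holds 0 matches. Mcm7 and Pcna were detected in 10 mice like Birc5 and are not shown, with up to 6 matches in a window of Mcm7 (1 CHR, 3 CCAAT and 2 E2F) and 1 CCAAT match in that of Pcna.
Ccnd3: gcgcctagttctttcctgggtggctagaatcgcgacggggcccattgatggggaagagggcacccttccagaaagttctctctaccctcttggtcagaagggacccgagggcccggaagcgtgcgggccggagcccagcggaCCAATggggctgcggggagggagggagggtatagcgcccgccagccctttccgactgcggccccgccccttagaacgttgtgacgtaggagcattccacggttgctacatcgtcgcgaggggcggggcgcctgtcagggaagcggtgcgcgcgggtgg
Rrm1: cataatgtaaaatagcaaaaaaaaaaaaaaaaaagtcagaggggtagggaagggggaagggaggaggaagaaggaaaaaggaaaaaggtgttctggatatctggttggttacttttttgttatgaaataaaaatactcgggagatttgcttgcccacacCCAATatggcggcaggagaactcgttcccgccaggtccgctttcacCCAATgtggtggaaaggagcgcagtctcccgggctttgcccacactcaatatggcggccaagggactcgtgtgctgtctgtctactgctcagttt
Birc5: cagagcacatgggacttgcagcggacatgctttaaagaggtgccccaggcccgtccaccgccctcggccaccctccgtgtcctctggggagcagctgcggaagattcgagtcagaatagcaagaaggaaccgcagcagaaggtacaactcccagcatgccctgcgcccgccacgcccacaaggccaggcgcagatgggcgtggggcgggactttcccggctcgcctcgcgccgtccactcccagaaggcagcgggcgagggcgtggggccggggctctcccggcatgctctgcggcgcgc

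Shown next, for the words themselves, are the members with the most matches among the mitotic kinase, checkpoint and APC/C members and the cyclin, CDK and E2F members: Ube2c (chr2:164769679-164769978, plus strand), Cdk1 (chr10:69352863-69353162, minus strand) and Ccnb2 (chr9:70421505-70421804, minus strand). Capitals again mark the matched words. Outside these roles, Top2a had more, with 4 CHR and 6 CCAAT matches. Ube2c holds 6 CCAAT matches and 1 CHR match, and a pair of the CCAAT matches overlap on opposite strands. Cdk1 holds 3 CCAAT, 2 CHR and 1 E2F match, and Ccnb2 holds 3 CCAAT and 2 CHR matches, with 1 CHR starting 4 bases past the gene start.
Ube2c: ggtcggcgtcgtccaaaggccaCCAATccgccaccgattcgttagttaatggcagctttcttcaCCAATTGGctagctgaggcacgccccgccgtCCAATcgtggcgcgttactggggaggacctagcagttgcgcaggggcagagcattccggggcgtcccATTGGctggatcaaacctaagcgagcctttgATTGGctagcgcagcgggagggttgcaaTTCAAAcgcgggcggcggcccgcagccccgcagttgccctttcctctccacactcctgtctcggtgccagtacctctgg
Cdk1: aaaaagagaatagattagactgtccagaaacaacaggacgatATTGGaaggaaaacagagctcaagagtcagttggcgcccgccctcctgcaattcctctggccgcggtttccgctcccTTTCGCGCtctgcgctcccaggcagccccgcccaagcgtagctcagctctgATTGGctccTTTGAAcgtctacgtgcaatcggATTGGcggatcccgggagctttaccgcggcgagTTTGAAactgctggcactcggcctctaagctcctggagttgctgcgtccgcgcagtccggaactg
Ccnb2: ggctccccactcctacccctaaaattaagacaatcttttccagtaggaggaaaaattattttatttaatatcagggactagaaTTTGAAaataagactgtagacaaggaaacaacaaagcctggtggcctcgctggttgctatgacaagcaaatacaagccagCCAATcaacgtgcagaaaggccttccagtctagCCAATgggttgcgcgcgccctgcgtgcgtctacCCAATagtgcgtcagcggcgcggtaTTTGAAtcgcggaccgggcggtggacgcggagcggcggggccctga

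Each library held 10.1 to 19.6 M mapped reads, and a gene under 1 read per 1 M mapped reads (1 CPM) is listed at 0, a limit called the floor here. A library had 6929 to 12682 genes above the floor, and the mean was higher by 446 genes in BDE-47 mice, a difference the exact permutation test did not call (two-sided p = 0.604). Among the 34 members other than the D-type cyclins, 59.4% of the 510 values lay at the floor, against 46.3% over all 16301 genes that were above it in any mouse. Values above the floor rested on a median of 168 reads (17 to 4192). The study's methods describe no removal of repeated reads of the same molecule, so a number of reads need not be a number of molecules. The libraries were made from the 3′ ends of transcripts, so CPM values carry no division by gene length. Copies of 6 members (Pcna, Tyms, Ccnd3, Ccnb1, Ccnb2 and Stmn1) are annotated under the member's name with -ps or -rs added. Copies under other names were not searched for. How reads shared with copies were counted is not given in the sources used here.

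Many of the members other than the D-type cyclins were at the floor in most mice, and their summed level was by far the highest in 1 vehicle mouse. In vehicle mouse 6, 31 of the 34 members other than D-type cyclins were above the floor, 22 of them at 30 CPM or more, and they summed to 2318 CPM. Next by summed level came BDE-47 mouse 2 with 22 members above the floor and 547 CPM, and vehicle mouse 8 with 14 members and 360 CPM. The remaining 12 mice summed to 50.9 to 219 CPM with 0 to 2 members at 30 CPM or more. Vehicle mouse 6 held the highest value of 22 of the 34 members, and only Cdc6, Bub1 and Nusap1 were at the floor there.

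The number of members above the floor did not follow the summed level in every mouse. BDE-47 mouse 3 had 27 of 34 members above the floor (79.4%), but it also had 77.8% of all detected genes above it, and its members summed to 182 CPM with none at 30 CPM. Vehicle mouse 1 was similar, with 18 members (52.9%), 70.4% of all genes and 131 CPM. In vehicle mouse 6 and BDE-47 mouse 2 the share of members exceeded that of all genes, at 91.2% against 51.3% and at 64.7% against 51.4%. Vehicle mouse 5 and BDE-47 mice 5, 6 and 7 were at the other end, with 4, 7, 6 and 6 members (11.8% to 20.6%) against 43.8% to 57.2% of all genes. Across the vehicle mice the number of members ranged from 4 to 31 with a median of 13.5, and across the BDE-47 mice from 6 to 27 with a median of 8. The groups overlap over most of this range.

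**Figure D1:**
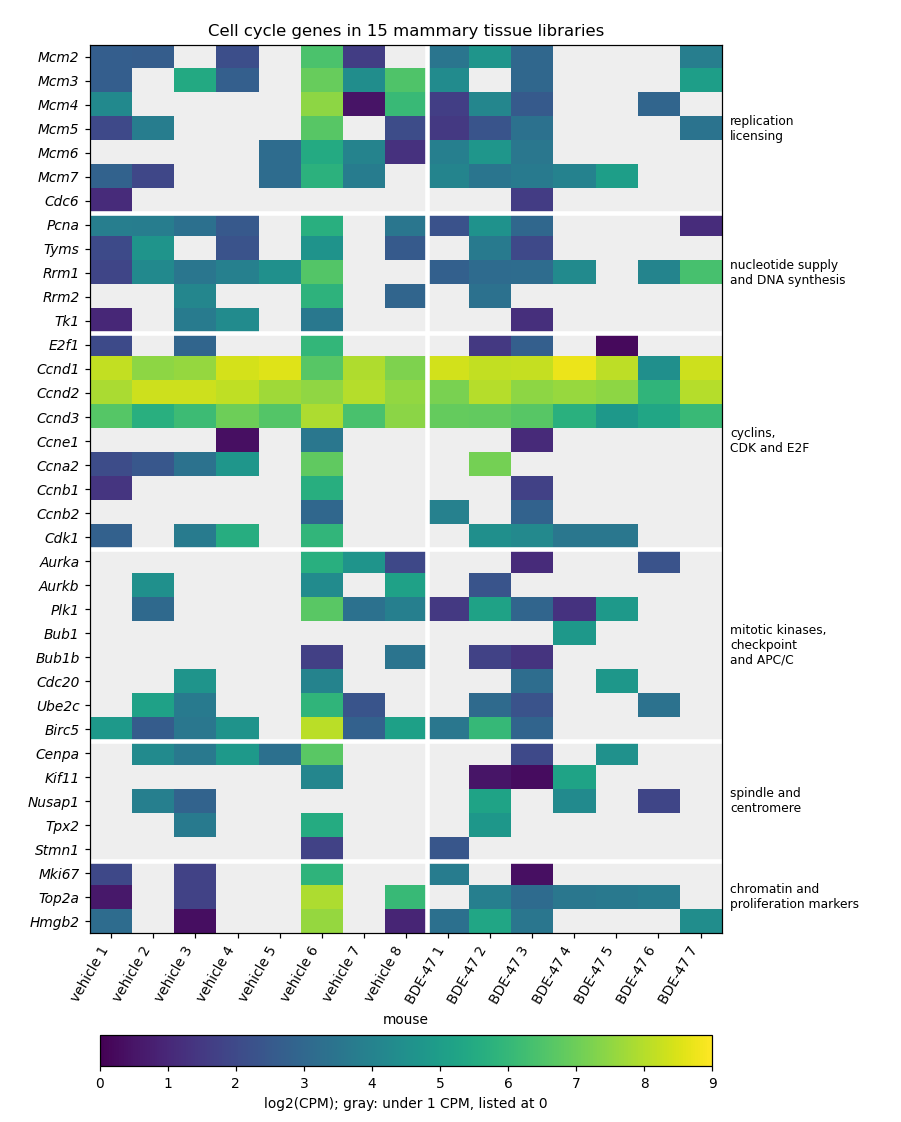
Log2(CPM) of the 37 members (rows, ordered by role) in each of the 15 mice (columns), with gray for values under 1 CPM. The column of vehicle mouse 6 is filled for 34 of 37 members, the rows of the D-type cyclins are filled in all 15 mice, and most other cells are gray or dark.

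**Figure D2:**
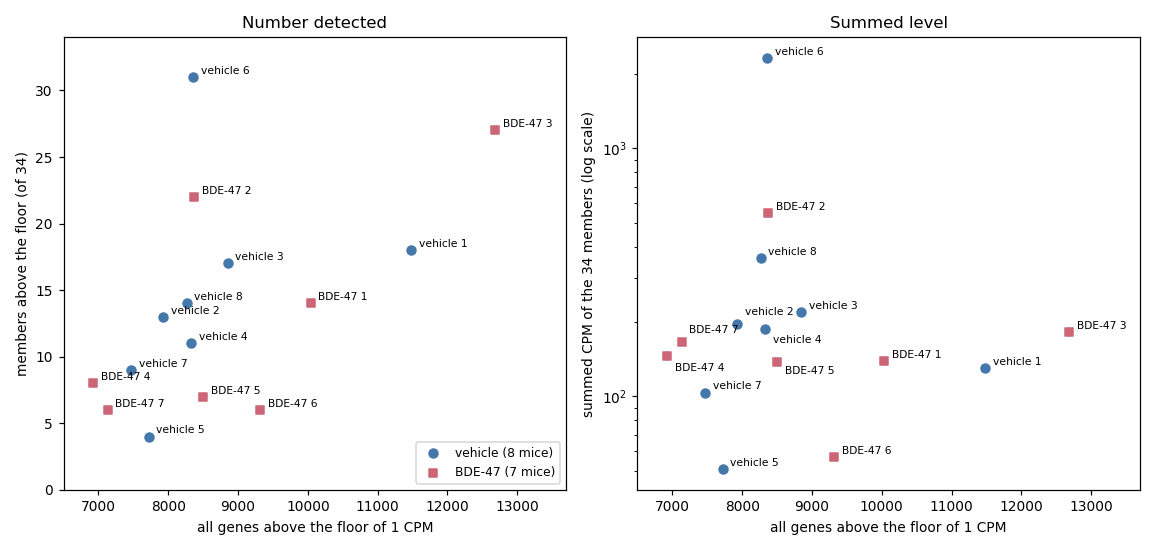
Number of the 34 members other than the D-type cyclins above the floor (left) and their summed CPM on a log scale (right) against the number of all genes above the floor, 1 point per mouse. Vehicle mouse 6 stands highest in both panels at a middling number of genes, whereas BDE-47 mouse 3 is second in the left panel with 27 members and in the middle of the right panel with 182 CPM.

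Vehicle mice 6 and 8 also stood apart from the other libraries in their cell type markers. All 8 B cell markers and all 6 T cell markers were above the floor in both, against 0 to 1 B cell markers and 0 to 2 T cell markers in the other 13 mice. The B cell markers summed to 543 CPM in vehicle mouse 6 and 765 CPM in vehicle mouse 8, and to at most 9.87 CPM elsewhere. The marker with the highest mean, Cr2, a complement receptor, was at log2(CPM) 7.54 and 7.22 there, and Cd79b, of the B cell receptor, at 6.07 and 7.49. Adipocyte markers, led by the fatty acid carrier Fabp4, summed to 281 and 769 CPM in these mice and to 2294 to 19440 CPM in the others. Luminal epithelial markers, led by the keratin Krt18, summed to 32.4 and 119 CPM in these mice and to 142 to 2491 CPM elsewhere. These libraries, labelled mammary tissue, thus held little of the markers of fat and epithelium. Plasma cell markers, of which Xbp1 had the highest mean, summed to 46.4 to 2709 CPM in vehicle mice and to 39.6 to 290 CPM in BDE-47 mice, the highest in vehicle mouse 8, where Jchain, of the joining chain of antibodies, was at log2(CPM) 11.20 and Xbp1 at 6.44. In the same order of groups, macrophage markers, led by C1qa, summed to 96.3 to 643 and 83.7 to 336 CPM, endothelial markers, led by Pecam1, to 52.8 to 357 and 41.1 to 195 CPM, and erythroid markers, led by Hba-a1, to 175 to 2279 and 372 to 1145 CPM. Basal markers, led by Krt5, summed to 3.76 to 154 and 23.1 to 303 CPM and cornified keratinocyte markers, led by Krt10, to 20.0 to 51.7 and 22.2 to 50.2 CPM. The lymph node chemokine Cxcl13 was at 6.91 in vehicle mouse 6 and 7.76 in vehicle mouse 8, but also at 4.31 in vehicle mouse 3, which had no B or T cell marker above the floor, and Ccl21a and Ccl19 were at 0 in all mice.

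The markers and the cell cycle genes did not rank the mice alike. Vehicle mouse 8 had the higher B cell sum of the pair but 360 CPM of members against 2318 CPM. Of the germinal centre B cell markers reported, Rgs13 was at 0 in all 15 mice, Gcsam was at 0 in both of these mice, and Bcl6 was at 0 in vehicle mouse 6 and at 3.24 in vehicle mouse 8. S1pr2 was at 3.41 in vehicle mouse 6 and at 0 in vehicle mouse 8, and both Bcl6 and S1pr2 were above the floor in most other mice. BDE-47 mouse 2, second in the members, had 0 of 8 B cell and 0 of 6 T cell markers above the floor and a luminal sum of 1157 CPM. The basal keratin Krt15, singled out after its values were seen, was at log2(CPM) 7.04 in BDE-47 mouse 2 and at most 2.38 in the other 14. BDE-47 mouse 6 held skeletal muscle RNA, with muscle markers at 73316 CPM, led by the actin Acta1, against 34.1 to 132 CPM in the other mice. The part of these other cells in the levels of the members was not tested.

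**Figure D3:**
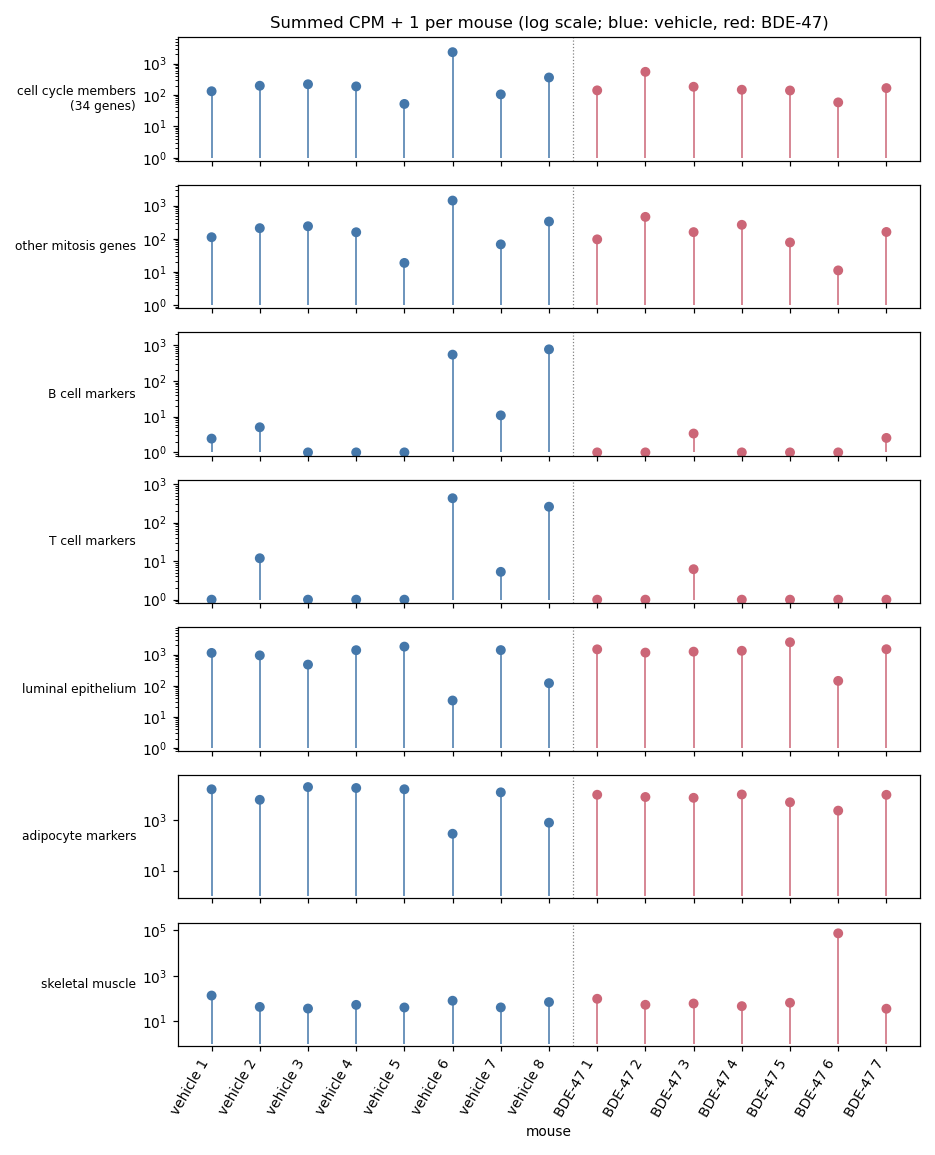
Summed CPM + 1 per mouse on log scales for the 34 members other than the D-type cyclins, the other mitosis genes and 5 marker lists, vehicle in blue and BDE-47 in red. B and T cell markers peak in vehicle mice 6 and 8, where adipocyte and luminal markers are lowest, and BDE-47 mouse 2 has high members with B cell markers at 0.

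Among the replication licensing genes, Mcm2 to Mcm7 encode the ring of the replicative helicase and Cdc6 helps to load it on origins. At least 5 of the 6 helicase genes were above the floor in 6 mice. In vehicle mouse 6 all 6 were, from log2(CPM) 5.49 for Mcm6 to 7.47 for Mcm4, and each had its highest value there. Vehicle mouse 8 came next for Mcm3 at 6.51 and Mcm4 at 6.10, whereas Mcm2 and Mcm7 were at 0 in it. The licensing genes summed to 587 CPM in vehicle mouse 6, 166 CPM in vehicle mouse 8 and 7.66 to 86.2 CPM elsewhere. Mcm7, above the floor in 10 mice, had a lowest, median and highest log2(CPM) of 0, 2.38 and 5.80 in vehicle mice. In BDE-47 mice these values of Mcm7 were 0, 3.70 and 5.03, and the groups overlap. Cdc6 was above the floor only in vehicle mouse 1 (1.10) and BDE-47 mouse 3 (1.59), the libraries with the most genes detected.

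Of the genes of nucleotide supply and DNA synthesis, Pcna encodes the sliding clamp of the replication fork, Rrm1 and Rrm2 the subunits of ribonucleotide reductase, and Tyms and Tk1 enzymes that make thymidine nucleotides. Rrm1 was the most widely detected of them, in 12 mice. Its lowest, median and highest log2(CPM) were 0, 3.72 and 6.58 in vehicle mice and 0, 3.18 and 6.39 in BDE-47 mice. Rrm2, the subunit made in S phase, was above the floor in 4 mice, namely vehicle mice 3 (4.12), 6 (5.80) and 8 (2.93) and BDE-47 mouse 2 (3.36). In 9 mice Rrm1 was above the floor while Rrm2 was at 0. Pcna, detected in 10 mice, had a lowest, median and highest log2(CPM) of 0, 3.43 and 5.70 in vehicle mice. In BDE-47 mice Pcna was at 0, 1.15 and 4.57, and the highest value in each group was that of vehicle mouse 6 and BDE-47 mouse 2. Tyms and Tk1 were the members of this role with their highest value in another mouse, at 4.67 in vehicle mouse 2 and 4.33 in vehicle mouse 4, and were above the floor in 7 and 5 mice.

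The D-type cyclins were the only members above the floor in all 15 mice. Ccnd1, the cyclin typical of mammary epithelium, had a lowest, median and highest log2(CPM) of 6.65, 7.75 and 8.54 in vehicle mice and of 4.49, 8.22 and 8.73 in BDE-47 mice. Ccnd2 had 7.51, 7.93 and 8.32 in vehicle mice and 5.88, 7.48 and 8.01 in BDE-47 mice. Ccnd3, which lymphocytes use when they proliferate, had 5.69, 6.61 and 7.91 in vehicle mice and 4.79, 6.10 and 6.87 in BDE-47 mice. The groups overlap for all 3 genes. The lowest Ccnd1 and Ccnd2 values were those of BDE-47 mouse 6, the library with muscle RNA, where Ccnd1 was at 4.49 and the next BDE-47 mouse at 8.11. Scaled by the median of ratios over genes present in all mice, Ccnd1 there was at 5.06, still the lowest of the 15, and Ccnd2 at 6.46, with the next BDE-47 mouse at 7.01. Ccnd3 was the lowest of the D-type cyclins in 12 mice, but in vehicle mouse 6 it was the highest, at 7.91 against 7.51 for Ccnd2 and 6.65 for Ccnd1.

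The later cyclins and Cdk1, the kinase that drives mitosis, were detected in far fewer mice. Cdk1 was above the floor in 8 mice, with a lowest, median and highest log2(CPM) of 0, 1.41 and 5.92 in vehicle mice and of 0, 3.56 and 4.47 in BDE-47 mice. Ccna2, the cyclin of S phase and G2, was above the floor in 6 mice and reached 7.12 in BDE-47 mouse 2 and 6.81 in vehicle mouse 6, but at most 4.71 in the others. The mitotic cyclin Ccnb1 was at 5.64 in vehicle mouse 6, at 1.38 in vehicle mouse 1 and at 1.75 in BDE-47 mouse 3, and at 0 in the other 12. Its relative Ccnb2 was above the floor in 3 mice and highest in BDE-47 mouse 1 at 3.95. In 2 of the 8 mice with Cdk1 above the floor, BDE-47 mice 4 and 5, its partners Ccna2, Ccnb1 and Ccnb2 were all at 0. The G1 cyclin Ccne1 was above the floor in 3 mice and E2f1, an activator of S phase genes, in 6, both highest in vehicle mouse 6 at 3.58 and 5.96.

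Among the mitotic kinases, checkpoint genes and genes of the APC/C, the ligase that ends mitosis, Birc5 was the most widely detected. Birc5 encodes survivin, a subunit of the chromosomal passenger complex. Its lowest, median and highest log2(CPM) were 0, 4.11 and 8.08 in vehicle mice and 0, 0 and 6.03 in BDE-47 mice. Of the 8 vehicle mice, 7 had it above the floor, as did 3 of the 7 BDE-47 mice, and the groups overlap. Plk1, a kinase of mitotic entry, was above the floor in 9 mice and highest in vehicle mouse 6 (6.70), followed by BDE-47 mouse 2 (5.19) and BDE-47 mouse 5 (4.88). Ube2c, which charges the APC/C with ubiquitin, was above the floor in 7 mice and highest in vehicle mouse 6 at 5.89. The passenger kinase Aurkb was above the floor in 4 mice and highest in vehicle mouse 8 at 5.13, whereas Aurka, the kinase of the spindle poles, was above it in 5 and highest in vehicle mouse 6 at 5.69. Of the checkpoint genes, Cdc20 and Bub1b were each above the floor in 4 mice and Bub1 in 1, BDE-47 mouse 4, at 4.80 on 538 reads. BDE-47 mouse 4 also held the highest Kif11, at 5.20 on 714 reads. Nusap1 (4.31), Top2a (3.58) and Cdk1 (3.56) were above the floor in it too, while Mki67, Birc5 and Ccna2 were at 0. Of the 34 members other than the D-type cyclins, 8 were above the floor in that mouse.

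The spindle and centromere genes were rarely above the floor. Cenpa, the histone that marks centromeres, was above it in 7 mice and highest in vehicle mouse 6 at 6.71. The spindle protein Nusap1 was above it in 5 mice and highest in BDE-47 mouse 2 at 5.23, and was at 0 in vehicle mouse 6. Tpx2, which activates Aurora A on the spindle, was above it in 3 mice, at 5.55 in vehicle mouse 6, 4.78 in BDE-47 mouse 2 and 3.67 in vehicle mouse 3. The spindle motor Kif11 was above it in 4 mice. Stmn1, which destabilizes microtubules, was above it in 2 mice, at no more than 2.40.

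Mki67, the gene of the Ki-67 protein that pathologists use to count dividing cells, was above the floor in 5 of 15 mice. Vehicle mice 6, 1 and 3 held 5.85, 1.96 and 1.76 and BDE-47 mice 1 and 3 held 3.77 and 0.37, so the median was 0 in both groups and the values overlap. Top2a, which untangles replicated DNA, was above the floor in 9 mice. Its lowest, median and highest log2(CPM) were 0, 0.29 and 7.90 in vehicle mice and 0, 3.58 and 3.87 in BDE-47 mice. The 5 BDE-47 mice in which it was above the floor lay close together, from 3.15 to 3.87, whereas the high vehicle values were those of mice 6 (7.90) and 8 (6.08). In 5 mice Top2a was above the floor with Mki67 at 0, and in 1, BDE-47 mouse 1, the reverse held. Hmgb2, a chromatin protein abundant in dividing cells, was above the floor in 8 mice and reached 7.59 in vehicle mouse 6 and 5.33 in BDE-47 mouse 2. Mki67, Top2a, Cdk1, Ccna2 and Birc5 were all above the floor in 3 mice, vehicle mice 1, 3 and 6. With Pcna in place of Ccna2, BDE-47 mouse 3 joined them, with Mki67 at 0.37. Some of these values lay near the floor, such as Top2a at 0.58 in vehicle mouse 1. The share of all detected genes above the floor was 70.4%, 54.3% and 51.3% in vehicle mice 1, 3 and 6 and 77.8% in BDE-47 mouse 3.

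**Figure D4:**
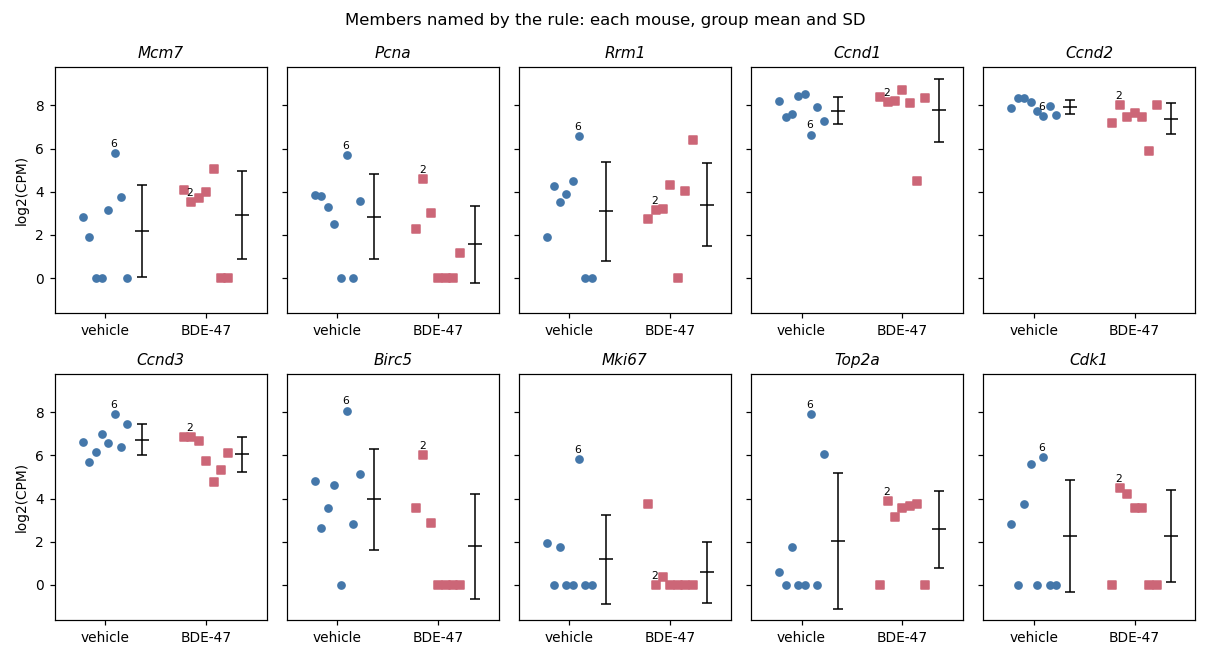
Log2(CPM) per mouse (points) with the group mean and SD (bars) for the 7 members above the floor in at least 10 mice and for Mki67, Top2a and Cdk1; vehicle mouse 6 and BDE-47 mouse 2 are numbered. The groups overlap in every panel, and vehicle mouse 6 is the highest point for all but the D-type cyclins Ccnd1 and Ccnd2.

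No member passed the test between BDE-47 and vehicle mice. Of the 37 members, 19 were above the floor in at least 7 mice and were tested by limma on the log2(CPM) values of 9506 genes with Benjamini-Hochberg adjustment. At an adjusted p under 0.05, 0 of the 19 were called, and 0 of all 9506 genes (0.0%), with a lowest adjusted p of 0.982. At an unadjusted p under 0.05, 0 of the 19 members were called by limma, against 442 of all genes (4.65%), and 1, Ccnd2, by the exact permutation test, which called 420 of all genes (4.42%). The other 18 members, above the floor in 1 to 6 mice, could not be tested at this filter, and without a filter none of the 37 had an unadjusted p under 0.05 either.

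The mean was lower in BDE-47 mice for 11 of the 19 members tested and for 50.9% of all genes tested. The median log2 difference, BDE-47 minus vehicle, was -0.30 for the members and -0.02 for all genes. The lowest differences were those of Birc5, Cenpa and Mcm3. Birc5 had a mean log2(CPM) of 3.96 ± 2.34 (SD, n = 8) in vehicle mice and 1.78 ± 2.42 (SD, n = 7) in BDE-47 mice. Its difference of -2.18 (SE 1.15) had the lowest p of the members, unadjusted 0.0666 and adjusted 0.982 by limma. Cenpa differed by -1.92 (SE 1.08) and Mcm3 by -1.83 (SE 1.19), both with an adjusted p of 0.982 by limma. The highest differences were 0.86 (SE 1.13) for Hmgb2, 0.71 (SE 1.12) for Mcm7 and 0.54 (SE 1.19) for Top2a, with adjusted p by limma of 0.993, 0.994 and 0.994. The SD within a group was 1.75 to 3.15 for these 6 genes.

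The median difference of the members moved with vehicle mouse 6 and with the filter. For the same 19 members without vehicle mouse 6, a choice made after seeing the data, 9 were lower in BDE-47 mice (52.3% of all genes) and the median was 0.06. With the filter applied again to the remaining mice, 15 members were left, 6 of them lower (52.2% of all genes), with a median of 0.39. Without vehicle mice 6 and 8, also chosen after seeing the data, 9 of the same 19 were lower (53.4% of all genes) with a median of 0.24, and with the filter applied again 6 of 12 were (53.8% of all genes) with a median of -0.01. Top2a then differed by 2.18 (SE 0.92), with an unadjusted p of 0.0205 and an adjusted p of 0.984 by limma. The mice left out held the highest vehicle values of Top2a (7.90 and 6.08), so their removal alone raised its difference from 0.54. In that fit 399 of 8833 genes (4.52%) had an unadjusted p under 0.05.

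**Figure D5:**
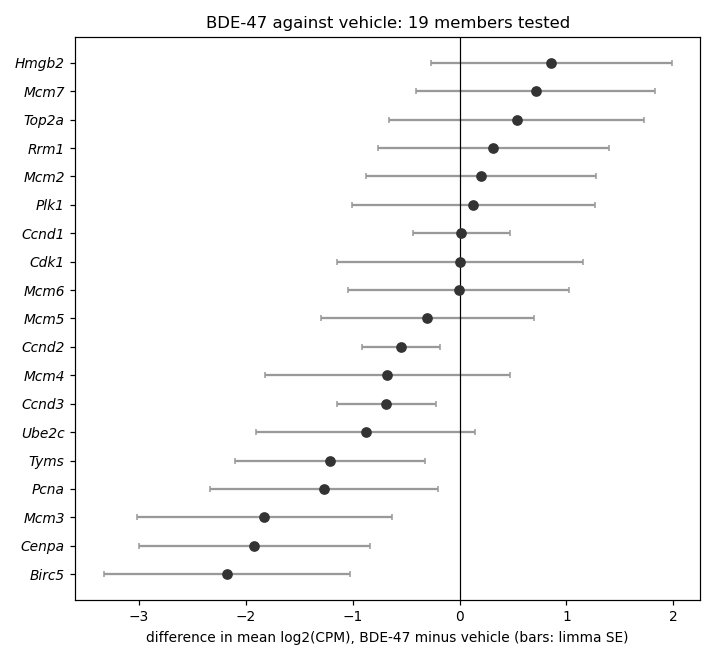
Difference in mean log2(CPM), BDE-47 minus vehicle, with the limma standard error for the 19 members tested, ordered by size. The differences run from -2.18 for Birc5 to 0.86 for Hmgb2, and no adjusted p was under 0.05.

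The other genes of the cell cycle gave the same picture of single mice. Of 38 further genes of mitosis, vehicle mouse 6 had 33 above the floor with a sum of 1417 CPM, BDE-47 mouse 3 had 26 with 158 CPM, and BDE-47 mouse 2 had 20 with 456 CPM. Vehicle mouse 8 followed by level with 13 genes and 330 CPM, and then BDE-47 mouse 4 with 10 genes and 262 CPM. Of 26 genes of origin firing and the replication fork, vehicle mouse 6 had 20 above the floor, BDE-47 mouse 3 had 17 and BDE-47 mouse 2 had 15. These summed to 742, 96.2 and 308 CPM. These genes were not among the 37, but they come from the same libraries.

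Of 94 such genes in 5 lists, 44 were tested by limma, and 0 had an adjusted p under 0.05. The mean was lower in BDE-47 mice for 32 of the 44, with a median log2 difference of -0.54, against 50.9% and -0.02 over all genes tested. By list these were 6 of 6 G1 cyclin, CDK and E2F genes, 8 of 13 genes of origin firing and the fork, 10 of 12 genes of mitosis, 4 of 5 CDK inhibitors and 4 of 8 genes of the pocket proteins and the DREAM complex. The genes with the highest mean in these lists were Cdk4, the DNA ligase Lig1, the condensin subunit Smc4, the CDK inhibitor Cdkn2c and Rb1. With mice left out, the filter was applied again in each fit, so fewer of these genes were tested. Without vehicle mouse 6, 21 of 33 were lower with a median of -0.38 (52.2% and -0.05 over all genes). Without vehicle mice 6 and 8, 19 of 31 were lower with a median of -0.11 (53.8% and -0.08 over all genes), and without BDE-47 mouse 6 as well, 15 of 28 were (50.6% of all genes).

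In these lists 2 of the 44 genes (4.55%) had an unadjusted p under 0.05, a share near the 4.65% of all genes tested, and they are given as values only. Prc1, which bundles the microtubules of the central spindle, reached up to 5.04 in the 6 of 8 vehicle mice that had it above the floor, and 1 of 7 BDE-47 mice, mouse 3, had it, at 3.03. Its difference was -2.40 (SE 0.94), with an unadjusted p of 0.0142 and an adjusted p of 0.982 by limma. Rb1, the retinoblastoma gene that restrains E2F, was above the floor in all 7 BDE-47 mice, from 3.69 to 6.39, and in 5 of 8 vehicle mice, with a lowest, median and highest value of 0, 1.40 and 6.39. Its difference was 2.65 (SE 1.02), with an unadjusted p of 0.0132 and an adjusted p of 0.982 by limma. The highest vehicle values of Prc1 and Rb1 were both those of vehicle mouse 6, and the groups overlap for both genes.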

How the data were processed

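Mammary tissue RNA of 8 vehicle and 7 BDE-47 mice was sequenced from QuantSeq 3′ FWD libraries. According to the study's methods and the submitters' processing notes, reads were mapped with STAR 2.5.3a to mouse build GRCm38 and normalized to CPM. The counting tool and its strand setting are not given in the sources used here. The deposited tables hold log2(CPM), and the authors list genes under 1 CPM at 0, as the values themselves show. Depth was recovered from the spacing of low values, which were whole multiples of 1 read (within 0.1 read), and was 10.1 to 19.6 M reads, so the floor stands for 10.1 to 19.6 reads. No technical replicates were made, so precision cannot be parted from the spread between mice, and p-values measure that spread.

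Groups were taken from the treatment labels. The first entry of a repeated gene name was kept, which removed 110 of 52636 entries. Genes above the floor in at least 7 of 15 mice were tested on the deposited log2 values, two-sided, with limma 3.58.1 (trend) in R 4.3.3 and Benjamini-Hochberg adjustment, and the step was tested on simulated data. Fold changes lie on this floored log2 scale, which understates the change of low genes. The study's covariate, a xenograft in the region, is not in the labels for each mouse and was not used. The members and lists were chosen with earlier results of these data known. Values are printed for members above the floor in at least 10 mice and for Mki67, Top2a, Pcna, Cdk1 and Birc5, with limma values for the 3 largest differences in each direction and any unadjusted p under 0.05. From the other pathway and marker lists the gene with the highest mean is named, with pathway genes of an unadjusted p under 0.05. For members outside these rules the number of mice and the highest values are given. Alternatives were log2(CPM + 1), log2(CPM + 0.1), other filters and floors, median-of-ratios scaling, limma without trend, exact permutation tests, the replicate number as a block and each mouse left out. Python 3.11.15, numpy 2.4.6, pandas 2.3.3 and matplotlib 3.10.9 were used. Promoter windows came from RefSeq, build GRCm38.p6.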

Additional observations from a re-analysis of the deposited data

Results flagged for a closer look

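In 28 groups of values (each named member and each count per mouse, in each treatment group) the highest and lowest mouse were checked by Dixon's criterion, and 9 values lay far from the rest. For normally distributed values, chance alone flags about 1 group in 20. Many of the values here lie at 0 and others are counts or sums, so their rate of chance flags is not known. Flags of the same mouse can also overlap, since the sums and counts come from the same members. Vehicle mouse 6 lay above the other vehicle mice in summed CPM of the members other than the D-type cyclins (2318 CPM), in members at 30 CPM or more (22) and in Mki67 (log2(CPM) 5.85). All 8 B cell markers were above the floor in the same library. BDE-47 mouse 2 lay above the other BDE-47 mice in the same sum (547 CPM) and in members at 30 CPM or more (5), with B cell markers at 0. Mki67 was at 3.77 in BDE-47 mouse 1 and at no more than 0.37 in the other BDE-47 mice. Ccnd1 (4.49) and Ccnd2 (5.88) were lowest in BDE-47 mouse 6, whose muscle markers summed to 73316 CPM. After median-of-ratios scaling the gap of Ccnd2 to the next mouse was 0.39 of the range of the group, which no longer passes the criterion, and that of Ccnd1 was 0.81. Vehicle mouse 1 had more genes above the floor (11484) than the other vehicle mice.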

How the results depend on the processing

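At an adjusted p under 0.05 the count of members was 0 under all 25 alternatives run, and the count of all genes was 0 under 24 of them and 1 (Wfdc18, limma adjusted p = 0.0439) without vehicle mice 6 and 8 and BDE-47 mouse 6, an alternative chosen after seeing the data. The lowest adjusted p over the alternatives planned was 0.478. The count of members with an unadjusted p under 0.05 was 0 in the main limma fit. It was 1 with the filter set to a mean of 1 CPM or more (Birc5), where 551 of 13396 genes were called. It was 1 with exact permutation tests (Ccnd2, p = 0.0458), where 420 of 9506 genes were called. Without vehicle mice 6 and 8, chosen after seeing the data, it was 1 of 12 (Top2a), where 399 of 8833 genes were called. With each mouse left out in turn it was 0 to 1, namely Cenpa without vehicle mouse 1, 7 or 8 and Birc5 without vehicle mouse 5 or BDE-47 mouse 2. Cenpa was at 0 in vehicle mice 1, 7 and 8 and Birc5 at 0 in vehicle mouse 5. BDE-47 mouse 2 held the highest Birc5 of its group (6.03). Leaving out any of these mice thus widened the difference of that gene by itself. The direction of the named differences held under the alternatives in which the gene was tested. Cenpa and Prc1 were tested in only 16 of the 25 alternatives, since each was above the floor in just 7 mice, the fewest the filter accepts. Fits that left out a mouse with the gene above the floor, such as vehicle mouse 6, did not test it. Those fits could therefore not show a change of direction for these genes. The labels do not say whether mice with the same replicate number were paired. Correlations of their deviations from the group means were -0.02 to 0.05, and 3 of 7 correlated best with their own number. These values do not settle whether there was a pairing. A fit with the replicate number as a block leaves out vehicle mouse 8, whose number no BDE-47 mouse has. In it 1 member, Cenpa, had an unadjusted limma p under 0.05 (0.0398). So did 381 of all genes, against 442 in the main fit. The difference in genes above the floor, 446 per mouse, ranged from -168 without BDE-47 mouse 3 to 865 without vehicle mouse 1. Median-of-ratios scaling moved the median difference of all genes from -0.02 to 0.06. Members at the floor were under 1 CPM in that library, which does not show them absent.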
